A study of Homo sapiens with 3 samples.

Results

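The miRs miR-25, miR-92a and miR-92b were examined in extracellular vesicles (EVs) of HepG2, a human liver tumor line in long use. Every deposited row that names an arm of one of these miRs was taken, which gave 6 of 512 names, and 5 of the 6 had a count. Small RNA was sequenced from 3 batches of EVs, with 1 library per batch, and all 3 belong to 1 group, wildtype cells kept without serum for the last 48 h. There was no treated group or control group, so levels were described and batches were compared only with each other. The batches held 8704, 10834 and 7933 miR counts. A miR with 0 counts could thus still have held up to 0.0345%, 0.0277% and 0.0378%, respectively, taking 3 counts as the limit. Whether the batches came from separate cultures is not stated, so a difference between them may be technical. Intervals, floors and p-values were set against counting error alone, with PCR reads taken as independent.

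A miR is cut from a hairpin-shaped precursor, and either the 5p or the 3p arm may be loaded into an Argonaute protein, where the bases 2 to 8, the seed, choose most targets. miR-25, miR-92a and miR-92b share the same seed in their 3p arms, so they can act on the same mRNAs. They come from different loci, among them the miR-17-92 cluster, which the transcription factor MYC activates and which promotes growth of tumor cells, and the cluster in an intron of MCM7, a gene for a subunit of the helicase that unwinds DNA for replication.

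The mature 3p sequences are shown first because they define the family and show how little separates its members. They are RefSeq sequences on GRCh38.p14, written 5′ to 3′, with the seed in capitals.
hsa-miR-92a-3p: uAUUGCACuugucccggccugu
hsa-miR-92b-3p: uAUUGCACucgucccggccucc
hsa-miR-25-3p: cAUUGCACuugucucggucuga
Counted from 1 at the 5′ end, miR-92b-3p differs from miR-92a-3p at 3 of 22 positions (U10C, G21C and U22C), 2 of them at the 3′ end, and miR-25-3p differs from miR-92a-3p at 4 (U1C, C14U, C18U and U22A). None of these lies in the seed. How reads that fit more than 1 member were counted is not given in the sources used here.

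In RefSeq, 6 human mature miRs carry this seed, and 5 of them are named in the deposited counts. The remaining miRs of the seed are shown because they differ from miR-92a-3p outside the seed far more than the members do, at 11, 12 and 10 of 22 positions, respectively.
hsa-miR-32-5p: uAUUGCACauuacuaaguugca
hsa-miR-363-3p: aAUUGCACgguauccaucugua
hsa-miR-367-3p: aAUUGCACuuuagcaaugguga
miR-32-5p and miR-363-3p had 0 counts in each of the 3 batches. miR-367-3p, a miR of embryonic stem cells, was not analysed here. Over all miRs of this seed the summed share was 2.96% ± 0.764 (SD, n = 3 batches).

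The members come from 4 hairpins on 4 chromosomes, and 2 of these hairpins yield the identical miR-92a-3p. Their RefSeq sequences are given with the 3p arm in capitals.
MIR92A1: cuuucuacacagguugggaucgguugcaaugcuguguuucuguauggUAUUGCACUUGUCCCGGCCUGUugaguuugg
MIR92A2: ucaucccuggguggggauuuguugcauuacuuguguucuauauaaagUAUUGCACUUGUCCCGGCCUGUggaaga
MIR25: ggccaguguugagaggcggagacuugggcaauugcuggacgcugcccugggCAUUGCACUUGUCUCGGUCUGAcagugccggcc
MIR92B: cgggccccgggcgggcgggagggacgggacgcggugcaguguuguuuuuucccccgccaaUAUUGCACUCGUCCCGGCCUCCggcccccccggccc
MIR92A1 lies at chr13:91351314-91351391 on the plus strand, inside MIR17HG, the host gene of the miR-17-92 cluster, where GENCODE 29 places it in an exon of 2 spanning transcripts and in an intron of 1. MIR92A2 lies at chrX:134169538-134169612 on the minus strand, in the miR-106a-363 cluster. MIR25 lies at chr7:100093560-100093643 on the minus strand, in an intron of all 8 transcripts of MCM7 that span it. MIR92B lies at chr1:155195177-155195272 on the plus strand, in an exon of the antisense RNA AC234582.1 and 316 bases from THBS3. Since reads of miR-92a-3p cannot be placed at MIR92A1 or MIR92A2, its counts are a sum over both.

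miR-92a-3p was the leading member. Its counts were 268, 218 and 153 in batches 1, 2 and 3, or 3.08%, 2.01% and 1.93% of the miR counts. Batch 1 stood highest, and the other 2 batches lay close together. The mean share was 2.34% ± 0.641 (SD, n = 3 batches), at rank 9 of the 512 names by mean raw count, with rank 8 in batch 1 and rank 9 in both others. Above it in the order stood miR-192-5p, a liver-enriched miR, and below it miR-122-5p, which hepatocytes express most specifically. The mean difference of miR-92a-3p from miR-192-5p was -0.651 percentage points (SD 0.917, n = 3 batches), and miR-92a-3p was the higher one in 1 of 3 batches, so this difference was not larger than its spread. It was above miR-122-5p in 3 of 3 batches, with a mean difference of 0.665 percentage points (SD 0.413, n = 3). With 3 batches an exact two-sided sign-flip test cannot go below p = 0.25.

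miR-25-3p was the next member. It had 66, 65 and 38 counts in batches 1, 2 and 3, or 0.758%, 0.600% and 0.479%. Its mean share was 0.612% ± 0.140 (SD, n = 3 batches), at rank 22 by mean raw count. The order around it was not resolved. miR-140-3p above it (72, 67 and 35 counts) and miR-151a-3p below it (70, 52 and 39) lay close, and miR-25-3p was the higher one in 1 of 3 batches against each.

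miR-92b-3p was rare, although it shares 19 of 22 bases with miR-92a-3p. It had 0 counts in batches 1 and 2 and 2 counts in batch 3, a share of 0.0252% there (95% Wilson interval 0.00691% to 0.0919%). Summed over the batches, miR-92a-3p had 639 counts to these 2, a ratio of 320 (95% exact interval 88.1 to 2640). The ratio of miR-25-3p to miR-92b-3p, with 169 counts to 2, was 84.5 (23.0 to 703).

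**Figure D1:**
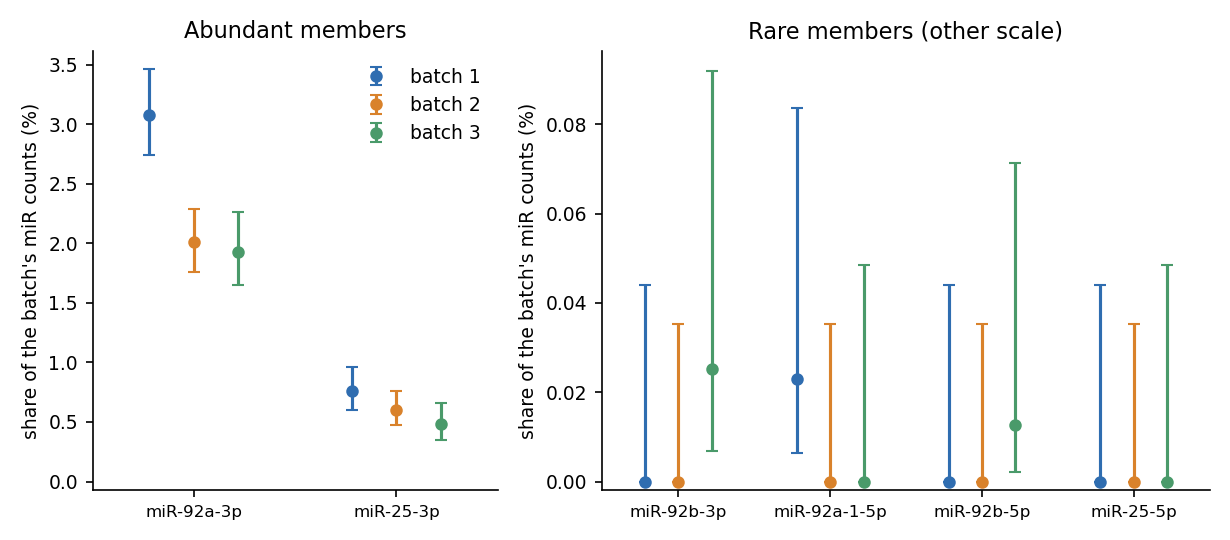
Share of each batch's miR counts (%) for the 6 members, with a point per batch and bars for the 95% Wilson interval, which covers counting error only. The left panel shows miR-92a-3p, at 3.08% in batch 1 and 2.01% and 1.93% in the others, above miR-25-3p at 0.479% to 0.758%, and the right panel, on another scale, shows the rare members, each with counts in at most 1 batch.

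The 5p arms were close to absent. miR-92a-1-5p, the arm opposite miR-92a-3p in MIR92A1, had 2 counts in batch 1 and 0 in the others. miR-25-5p had 0 counts in each batch, and miR-92b-5p had 1 count, in batch 3. miR-92a-2-5p, the arm from MIR92A2, was not analysed here. Of the 813 counts of the members, 810 (99.6%) belonged to a 3p arm. For MIR25, the 3p arm was 56.3-fold higher than a floor of 3 counts over all batches, put in place of the 0 of the 5p arm. This fold leaves out the counting error of the 3p arm, whose exact 95% lower bound was 97.8% of the counts of both arms. For MIR92A1, 639 counts were of the 3p arm and 2 of the 5p arm, or 99.7% with an exact 95% lower bound of 98.9%. This overstates the 3p arm of MIR92A1 by any reads from MIR92A2. The 3 counts of MIR92B, 2 of the 3p and 1 of the 5p arm, were too few to give a preference (exact 95% interval of the 3p arm 9.43% to 99.2%).

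Together, the members reached a mean share of 2.97% ± 0.773 (SD, n = 3 batches), with 3.86%, 2.61% and 2.45% in batches 1, 2 and 3. miR-92a-3p made up 78.6% of their pooled counts and miR-25-3p 20.8%. This division varied little. The share of miR-92a-3p among the members was 79.8%, 77.0% and 78.9% in batches 1, 2 and 3. The ratio of miR-92a-3p to miR-25-3p was 4.06 in batch 1 (95% exact interval 3.09 to 5.40), 3.35 in batch 2 (2.53 to 4.50) and 4.03 in batch 3 (2.81 to 5.91). The 3 intervals overlap, and the log2 ratio was 1.93 ± 0.16 (SD, n = 3). A ratio within a batch does not depend on the batch total, but adapter ligation depends on the sequence, so it is a ratio of reads and not of molecules.

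The miR-17-92 transcript carries 6 hairpins, and miR-92a-3p stood far above what was counted from the others. Of 10 arms listed for these mates, 7 were named in the counts and 5 had a count. miR-17-5p, which represses cell cycle inhibitors, had 29, 28 and 16 counts in batches 1, 2 and 3, and miR-20a-5p, of the same seed family, had 21, 25 and 17. The pooled ratio of miR-92a-3p was 8.75 to miR-17-5p (95% exact interval 6.86 to 11.3) and 10.1 to miR-20a-5p (7.82 to 13.4). Per batch the first ratio was 9.24, 7.79 and 9.56 and the second 12.8, 8.72 and 9, so neither neared 1 in any batch.

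The mates of the miR-18 and miR-19 type were near the floor. miR-18a-5p had 2, 2 and 0 counts and miR-18a-3p had 0, 2 and 4. miR-19b-3p, a growth-promoting miR of the cluster, had 1 count in all, in batch 3, and miR-19a-3p and miR-19b-1-5p had 0 in each batch. The ratio of miR-92a-3p to miR-19b-3p was 639 on pooled counts (95% exact interval 114 to 25300). miR-92a-3p and these mates had 786 counts, and the share of miR-92a-3p among them was 81.0% ± 2.38 (SD, n = 3 batches). The GC content was 54.5% for miR-92a-3p, 56.5% for miR-18a-3p, and 47.8% for miR-17-5p and miR-19b-1-5p. It was 43.5% for miR-18a-5p, 39.1% for miR-20a-5p and miR-19b-3p, and 34.8% for miR-19a-3p. Whether GC content played a part in the counts was not tested.

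MIR92A2 lies in the miR-106a-363 cluster. Of the 9 arms listed for its mates, only 3 were named in the counts, and these 3 had no count. miR-106a-5p, miR-20b-5p and miR-363-3p were each at 0 in all 3 batches, and the other 6 arms listed for this cluster were not analysed here. How much of miR-92a-3p came from MIR92A2 was not tested.

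The 3 miRs of the MCM7 cluster were counted at more even levels. miR-93-5p, of the miR-17 seed family, had 56, 64 and 38 counts, close to the 66, 65 and 38 of miR-25-3p. The ratio of miR-25-3p to miR-93-5p was 1.18 (95% exact interval 0.813 to 1.71), 1.02 (0.708 to 1.46) and 1.00 (0.621 to 1.61) in batches 1, 2 and 3, and each interval holds 1. The mean log2 ratio was 0.09 ± 0.13 (SD, n = 3).

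miR-106b was counted mainly from its 3p arm. miR-106b-3p had 23, 18 and 10 counts and miR-106b-5p 2, 0 and 5, so the 3p arm was the higher one in each batch, with the smallest excess in batch 3. miR-25-3p exceeded miR-106b-3p by a log2 ratio of 1.77 ± 0.22 (SD, n = 3 batches). miR-93-3p had 8 counts in all. This cluster had 393 counts with miR-25-3p, whose share among them was 42.7% ± 1.96 (SD, n = 3 batches), against the 81.0% of miR-92a-3p among the counts of its own cluster, a comparison in which miR-92a-3p may hold reads of MIR92A2.

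**Figure D2:**
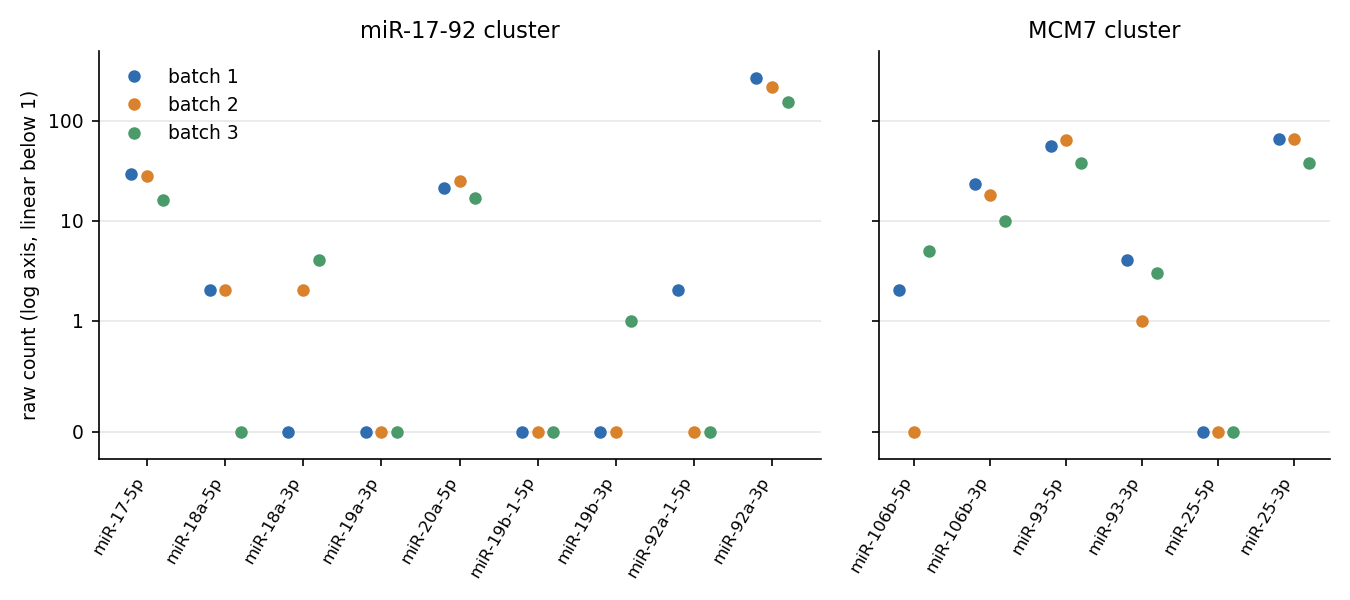
Raw counts of the arms named in the deposited data, in the order of the hairpins along the transcript, for the miR-17-92 cluster (left) and the MCM7 cluster (right), with a point per batch on a log axis that is linear below 1. miR-92a-3p, at 153 to 268 counts, stands above miR-17-5p and miR-20a-5p at 16 to 29, while miR-25-3p and miR-93-5p both lie between 38 and 66.

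The share of miR-92a-3p differed between the 3 libraries by more than counting noise. In an exact multinomial test of the 3 counts against the batch totals, with Benjamini-Hochberg adjustment over all 64 miRs with at least 30 counts in sum, the adjusted p was 1.42e-06. Batch 1 was 1.53-fold batch 2 (95% exact interval 1.27 to 1.84) and 1.60-fold batch 3 (1.30 to 1.96), and batch 2 was 1.04-fold batch 3 (0.845 to 1.29). For miR-25-3p the adjusted p was 0.133 (exact multinomial test), and batch 1 was 1.26-fold batch 2 (0.884 to 1.81) and 1.58-fold batch 3 (1.05 to 2.43). Thus 1 of the 2 tested members passed the threshold of 0.05, against a background of 24 of 64 miRs or 37.5%. The members with fewer than 30 counts were not tested.

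The difference of miR-92a-3p rested on batch 1 and on the use of raw totals. Without batch 1, its adjusted p was 0.890 (exact multinomial test, 2 batches). With totals scaled by TMM, its scaled shares became 2.51%, 2.25% and 2.12% and the adjusted p 0.364 in the same exact test, and DESeq2 size factors gave 2.55%, 2.21% and 2.12% and 0.238. The number of miRs that passed changed little, with 22 of 64 under TMM and 21 under DESeq2, but under either scaling they shared 14 miRs with the 24 of the raw totals. The fold from the lowest to the highest batch went from 1.60 to 1.19 and 1.20. For miR-25-3p, both scalings moved the highest share from batch 1 to batch 2 (0.619%, 0.670% and 0.526% with TMM). A general shift went along with this. The median over the 64 tested miRs of log2(share in batch / mean share) was 0.21 in batch 1, -0.07 in batch 2 and -0.21 in batch 3, whereas the values were 0.40, -0.22 and -0.28 for miR-92a-3p and 0.31, -0.03 and -0.35 for miR-25-3p. In bulk RNA of EVs, fewer vesicles that carry a miR and less of it per vesicle cannot be told apart.

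**Figure D3:**
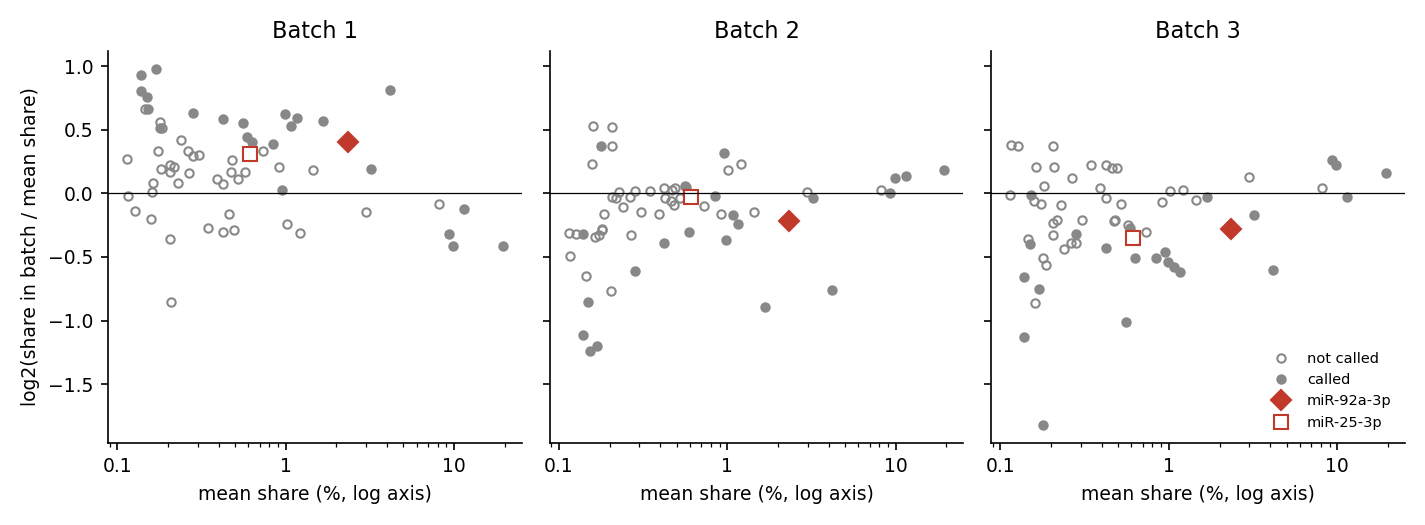
Deviation of each of the 64 tested miRs from its mean share, as log2(share in batch / mean share), against the mean share (%, log axis), with a panel per batch. Filled symbols mark an adjusted p under 0.05, and the red symbols are miR-92a-3p, at 0.40, -0.22 and -0.28, and miR-25-3p, at 0.31, -0.03 and -0.35, both within the cloud of the other miRs.

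**Figure D4:**
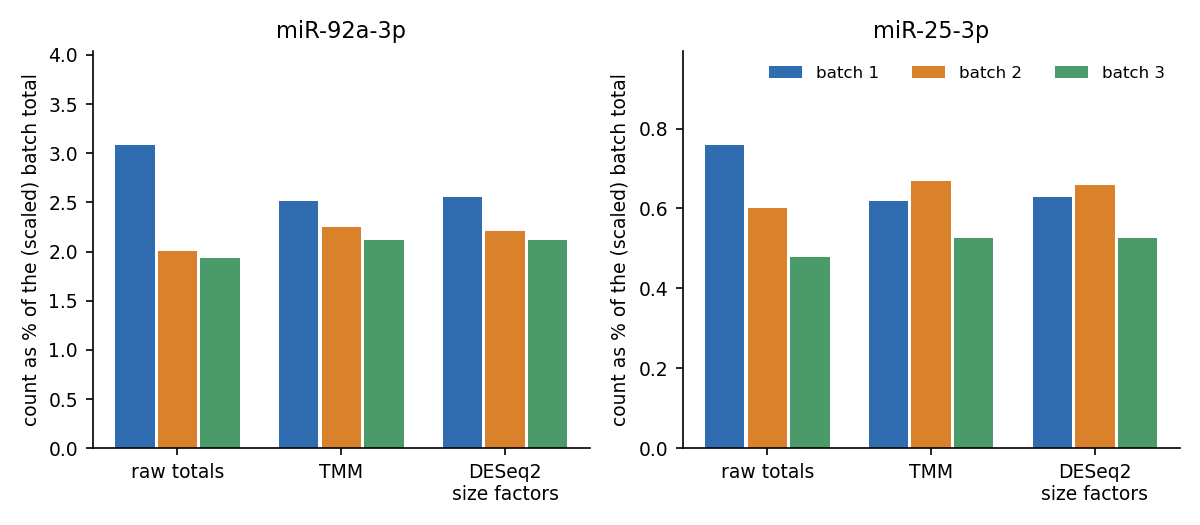
Counts of miR-92a-3p (left) and miR-25-3p (right) as a percentage of each batch's total, with raw totals and with totals scaled by TMM or DESeq2 size factors, a bar per batch from 0. The fold between the highest and the lowest batch of miR-92a-3p is 1.60 with raw totals and 1.19 and 1.20 with the scaled ones.

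The spread of the members over the batches was not unusual among the tested miRs. The coefficient of variation (CV) of the share was 27.4% for miR-92a-3p and 22.9% for miR-25-3p, with a median of 23.1% over the 64 miRs, and 26 and 33 miRs, respectively, had a larger CV. Counting noise alone would give about 7.04% for miR-92a-3p and 13.8% for miR-25-3p. After TMM scaling, the biological coefficient of variation estimated in edgeR, which the exact test leaves out, was 20.4% for miR-92a-3p and 17.3% for miR-25-3p. The value common to the tested miRs was 23.2%, and 10.8% without batch 1. edgeR draws the estimate of each miR toward this common value, so the estimates are not the spread of either miR alone.

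Among the 64 tested miRs, the pattern over the 3 batches nearest to that of miR-92a-3p was that of miR-151a-3p (70, 52 and 39 counts), at a Euclidean distance of 0.0972 between the log2 values of share over mean share. miR-186-5p (0.132), miR-24-3p (0.139), miR-200b-3p (0.195) and miR-224-5p (0.203) followed, and miR-25-3p came at place 6 with 0.221. Nearest to miR-25-3p was miR-17-5p (0.0443), followed by miR-197-3p (0.0680) and miR-24-3p (0.0882). With 3 batches such distances are a description only.

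The label of the cells was checked with lists of marker miRs. Of the 6 hepatocyte miRs, 5 were named in the counts and had one, and their summed share was 16.2% ± 0.432 (SD, n = 3 batches). miR-148a-3p led this list with 914, 1367 and 888 counts, and miR-192-5p and miR-122-5p followed, while miR-194-5p had 7, 7 and 3 counts and miR-122-3p had 1 in all. miR-92a-3p and miR-25-3p are also abundant in red blood cells and platelets. The miRs listed for those cells were at or near 0, and a part of such cells in the members' counts was not tested. miR-451a and miR-144-5p had 0 counts in each batch, miR-486-5p had 0, 1 and 1, and miR-16-5p had 1, 0 and 0. The summed share of this list was 0.00923% to 0.0126% per batch. The 4 white blood cell miRs had 1 count in all, of miR-223-3p. The endothelial list was at 0.0185% to 0.0804% and the stromal and smooth muscle list at 0.0369% to 0.103%, from 11 and 17 counts in all. They were led by miR-126-3p (7, 2 and 2 counts) and miR-145-5p (7, 3 and 3). Both lists were highest in batch 1, as were 43 of the 64 tested miRs, miR-92a-3p among them. The part of these lists in the difference of miR-92a-3p was not tested. miR-9-5p, a neural miR, had 0 counts.

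The seed of the family pairs with a stretch of 7 bases in mRNAs, GTGCAAT. A longer stretch has an A after it (GTGCAATA), which is not part of the seed pairing. Both were looked for on the sense strand of the longest annotated 3′ UTR of each protein-coding gene in GENCODE 29, and each longer match also counts as a shorter one. The shorter stretch was present in 2114 of 19132 genes (11.0%) and the longer in 589 (3.08%). Of 10 well-known targets of the family, listed from general knowledge, 9 are reported here, and all 9 held the shorter and 7 the longer. Such targets are often found through this stretch, so the count is no independent evidence. They include BCL2L11, which encodes the death-promoting protein BIM, FBXW7, a ubiquitin ligase subunit, and ITGA5 and KLF2, an integrin subunit and a transcription factor of endothelial cells. Sites in BCL2L11 and ITGA5 are shown as examples of the longer stretch, on GRCh38, with the matching bases in capitals.
BCL2L11, chr2:111168351-111168372, plus strand: ttgccactttacttGTGCAATA
ITGA5, chr12:54395297-54395318, minus strand: aaactctgttgcaaGTGCAATA

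The study was concerned with fibrosis, so the same search was read for 74 collagen, MMP, TIMP, ACTA2, CCN2 and RELN genes. Of these, 8 (10.8%) held the shorter stretch, against 11.0% of all genes, and 5 (6.76%) the longer, against 3.08%. By group, 7 of 45 collagen genes (15.6%) and 1 of 23 MMP genes (4.35%) held the shorter stretch. The median 3′ UTR searched was 1313 bases long for collagen genes, 509 for MMP genes and 1103 for all genes. The groups were thus not compared at equal length. The collagen genes were COL1A2, COL4A6, COL5A1, COL11A1, COL12A1, COL19A1 and COL27A1, and the MMP gene was MMP10, a secreted metalloproteinase. COL1A2, COL5A1, COL19A1, COL27A1 and MMP10 held the longer stretch. The sites of COL1A2, a chain of type I collagen, the main collagen of scar tissue, and of COL5A1, a chain of a collagen that regulates fibril assembly, are shown because both proteins belong to fibrotic matrix.
COL1A2, chr7:94430544-94430565, plus strand: ttgatcagagcattGTGCAATA
COL5A1, chr9:134843038-134843059, plus strand: ccctggccaagaacGTGCAATA
The study followed the mRNAs of TIMP1, MMP2, RELN, ACTA2, CCN2, COL1A1 and COL3A1 as fibrosis genes in mouse liver. These genes held neither stretch in the human 3′ UTRs searched. Other kinds of seed match were not looked for in these UTRs, and mouse 3′ UTRs were not searched. A match is a description of the sequence, and no target RNA was measured in these samples.

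The predicted sites of miR-92a-3p that the study lists, in COL8A1, COL8A2, COL14A1, MMP14, MMP16 and MMP24, were of another kind. They came from the prediction platform miRWalk. By the paper's account, it searches whole transcripts, not 3′ UTRs alone, with a random-forest method. The search made here used other criteria, so it is no test of these predictions. None of the 6 sites held the 7 bases, and none of the 6 genes held them anywhere in its longest 3′ UTR. Of the 8 fibrosis-related genes with the stretch, 0 were among these 6 genes. The site in MMP16, a membrane-type metalloproteinase, came nearest, with 6 bases that pair with seed positions 3 to 8. In COL8A1, a short-chain collagen, the paired stretch was 5 bases, and 7 bases could pair with the whole seed if 1 G:U pair is allowed. In MMP14, an activator of other metalloproteinases, and in COL8A2, the paired stretch was 4 bases, for positions 5 to 8. The sites of COL8A1, COL8A2 and MMP14 are shown on GRCh38, with the bases that can pair with the seed in capitals.
COL8A1, chr3:99797315-99797332, plus strand: caggctggaGTGCAGTag
COL8A2, chr1:36096368-36096389, minus strand: aggctgggagagaaaggGTGCc
MMP14, chr14:22847676-22847698, plus strand: gcagggcggggctgggtcgGTGC
In MMP24 and COL14A1 the paired stretch was 3 bases, or 5 if 2 G:U pairs are allowed. For 5 of the 6 genes the site lies in an annotated 3′ UTR, and for COL14A1 it was found in 0 of 9 annotated transcripts. The sites of COL8A1, MMP14 and MMP16 were in 1 of 8, 1 of 6 and 1 of 4 transcripts, respectively. Those of COL8A2 and MMP24 were in 2 of 3 and 1 of 1. Seed pairing was sought at every offset within a site, whatever pairing had been predicted.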

How the data were processed

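The deposited values are raw counts of each miR in each batch, without normalization. For the target search, the paper states that miR counts had been normalized. Libraries had been made from EV RNA with NEBNext reagents and run on an Illumina MiniSeq, with miRTrace for read quality. GRCh38 is the build in the submitters' processing notes, while neither an aligner nor a counter is given in the sources used here. A column with the authors' mean of the batches was not used. A second deposited sheet repeats the 205 names with at least 2 counts and was not used.

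Counts were expressed as shares of the batch total, with 95% Wilson intervals, and ratios were given with exact (Clopper-Pearson) binomial intervals. Batches were compared for each miR with at least 30 counts by an exact multinomial test that enumerates all outcomes, with Benjamini-Hochberg adjustment. The test had first been run on simulated data that held counting error alone, without further spread between batches. The named miRs were all arms of the members, their cluster mates, neighbors in rank and the 5 nearest in pattern to miR-92a-3p, besides the listed marker miRs and genes. The miRs nearest to miR-25-3p were added, and the sites shown were picked, after their values were seen. 1 listed target gene is not reported here. Members, lists and rules were chosen with earlier results of these data known. Sequences came from RefSeq (GRCh38.p14), UTRs from GENCODE 29 and predicted site sequences from the study's supplement. Alternatives covered scaling, count minimum, pooling, pseudocount and each batch left out. Python 3.11.15, scipy 1.17.1, R 4.3.3, edgeR 4.0.16 and DESeq2 1.42.0 were used.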

Additional observations from a re-analysis of the deposited data

How the results depend on the processing

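No paired analysis was possible because all 3 batches belong to 1 group. Of 87 alternatives, 74 kept the value within 1 SD, the side of the threshold or a count within 1.5 times. A mean over 3 batches cannot shift by 1 SD when 1 batch is left out. Such alternatives were bound to be among the 74, so this number is no measure of stability. Totals without the 5 most abundant miRs, another denominator, gave mean shares of 5.56% for miR-92a-3p, 1.47% for miR-25-3p and 7.08% for all members. The adjusted p of miR-92a-3p (exact multinomial test) was 0.364 with TMM, 0.238 with DESeq2 size factors and 0.756 without the 5 leading miRs, and with 1 batch left out it ran from 1.95e-05 (without batch 2) to 0.890 (without batch 1). The cause was not tested. That of miR-25-3p stayed above 0.05, from 0.0646 without batch 2 to 0.837 without batch 1. The miRs that differed numbered 15 of 59 without the 5 leading miRs and from 4 (without batch 1) to 18 with 1 batch left out. With 1 in place of 0.5 added to both arms, the mean log2 ratio of the 3p to the 5p arm of MIR25 went from 6.79 to 5.80, because its 5p arm was at 0. Depth limits the rare members, where 1 or 2 counts decide a share.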
